A study of Homo sapiens with 3 samples.

Results

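The transition from G1 to S phase is governed by cyclins, which bind and activate cyclin-dependent kinases, by inhibitors that hold these kinases back, and by the retinoblastoma family of pocket proteins, which restrain E2F transcription factors until they are phosphorylated. E2F factors then drive genes for DNA replication, including those that load the MCM helicase onto origins, the sliding clamp of the replication fork and the enzymes that supply nucleotides. Loss of APC, a negative regulator of β-catenin, is an early event in most colorectal tumors, and cyclin D1 is among the genes long discussed as targets of WNT signaling. The 41 genes described here are cyclins, kinases, inhibitors, E2Fs, pocket proteins and replication genes of this transition. They and the gene lists compared below were chosen by name, with earlier results of these data known. All 41 genes were found among the 23131 gene symbols of the deposited table.

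RNA-seq was performed on HCT-116, a human colon carcinoma line with wild-type *APC* and a β-catenin (*CTNNB1*) that lacks Ser45 and resists degradation. Cells were given pooled anti-*APC* siRNA, pooled scrambled siRNA, or transfection reagent without siRNA on consecutive days and were harvested 48 hours after the second transfection. The series has 1 library for each of these 3 conditions. The condition with reagent only is called untransfected here, as in its sample title, although its treatment label gives it reagent (mock). Only the anti-*APC* and untransfected libraries are in the table, so cells given scrambled siRNA were not analysed here. An effect of siRNA delivery therefore cannot be told apart from an effect of *APC* silencing. Because each condition was sequenced once, differences have no replicate check and no test was possible, and each ratio compares these libraries rather than the conditions.

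Transcript levels were deposited as FPKM, a read density corrected for transcript length and for library size (fragments per kilobase, scaled by mapped reads), and every ratio is given as anti-*APC* siRNA over untransfected. Ratios were computed for genes with a mean of at least 1 FPKM over both libraries, and 40 of the 41 genes passed. From the spacing of the lowest values, about 25100000 reads were estimated for untransfected cells and about 22900000 for anti-*APC* siRNA. The counting standard errors and intervals given with log2 ratios follow from these depths and cover counting error only. *APC* itself had 9.15 FPKM in untransfected cells and 3.43 FPKM after anti-*APC* siRNA, so 37.5% remained. The WNT target *AXIN2* had 4.11 and 28.7 FPKM in the same order. Of 7 colon epithelial markers, 6 were at 1 FPKM or more in both libraries and *VIL1* was at or near 0. All 6 were lower with anti-*APC* siRNA, from a log2 ratio of -0.12 for *CDX2* to -0.65 for *CDH1* (19.0 and 12.1 FPKM). Of all 12063 genes of at least 1 FPKM, 7073 were also lower. The counting interval of *CDX2*, -0.28 to 0.05, included 0. The ratios of *CDX2* and *EPCAM* (-0.15) lay within the middle 50% of all genes, from -0.24 to 0.11. The sum of the 7 markers was 1649 and 1294 FPKM, of which *KRT8* alone had 588 and 478 FPKM. The part of these differences in the values of the G1/S and replication genes was not tested. Of 8 leukocyte, endothelial and fibroblast markers, 7 were at 0.2 FPKM or less in both libraries, the exception being *COL1A1* with 2.85 and 3.08 FPKM.

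Most G1/S control and replication genes had slightly higher values after anti-*APC* siRNA, and few differed by much. Of the 40 genes, after anti-*APC* siRNA 28 (70.0%) had higher and 12 had lower values, whereas 41.4% of all 12063 genes of at least 1 FPKM were higher. Their median log2 ratio was 0.09, and the median over all 12063 genes was -0.05. At least a 1.5-fold difference was seen in 4 genes. The cell cycle phosphatase gene *CDC25A*, the kinase gene *CDK6* and the inhibitor gene *CDKN2B* were higher, and the helicase gene *MCM6* was lower. The 3 higher genes are read beside 2.56% of all genes that were at least 1.5-fold higher, and the 1 lower gene beside 6.61% that were at least 1.5-fold lower. After a trend of the ratio on expression level was subtracted, the split over all genes changed from 309 higher and 797 lower to 423 higher and 510 lower, while 3 of the 40 genes remained higher and 1 lower. None of the 40 differed by as much as 2-fold.

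**Figure D1:**
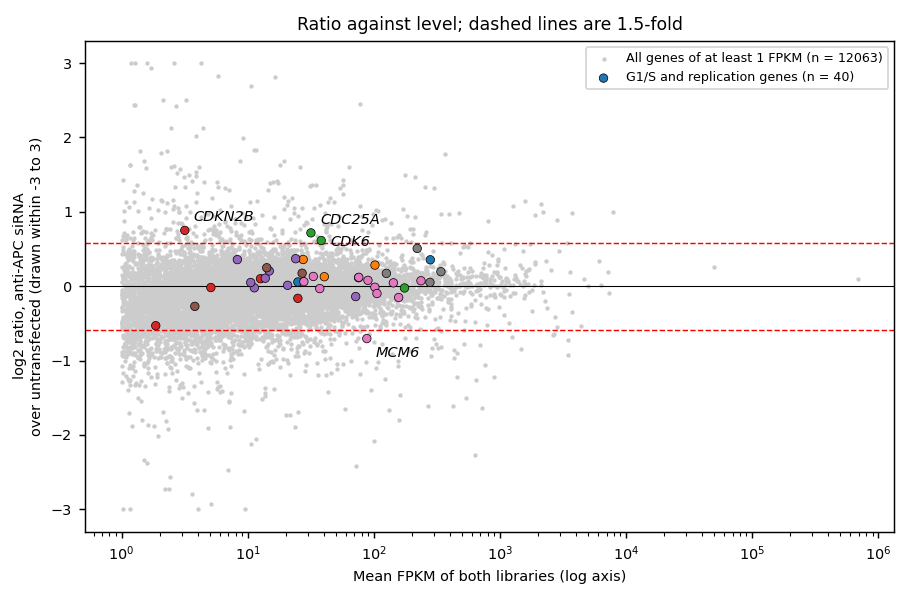
The log2 ratio of FPKM (anti-*APC* siRNA over untransfected) is plotted against the mean FPKM of both libraries on a log axis for 12063 genes (grey) and 40 G1/S and replication genes (coloured by role). *CDKN2B*, *CDC25A* and *CDK6* lie above the upper 1.5-fold line and *MCM6* lies below the lower line.

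Highly expressed genes varied less between the libraries. Of the 40 genes, 35 had a mean of at least 10 FPKM, and 2 of these 35 (*CDC25A* and *CDK6*) were at least 1.5-fold higher and 1 (*MCM6*) was at least 1.5-fold lower. Among all 7118 genes at this level 1.9% were at least 1.5-fold higher and 3.19% at least 1.5-fold lower. Of the 35 genes 26 were higher by any amount, or 74.3%, against 46.5% of the 7118. Counting intervals lay wholly above 0 for 22 of the 40 genes and wholly below 0 for 6, against 24.5% and 37% of 10140 genes of at least 1 FPKM with a known transcript length. At 10 FPKM or more they lay above 0 for 20 of the 35 genes and below 0 for 4, against 30.8% and 36.7% of 6097 genes.

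The upstream sequences of the 4 genes past 1.5-fold are shown because E2F factors act at such promoters, together with that of *MCM7*, a subunit of the same helicase as *MCM6* whose level was nearly equal in both libraries. Sequences are from RefSeq on GRCh38.p14, unlike the table, and hold the 200 bases before the transcription start, 5′ to 3′ on the strand of the gene. All 5 genes lie on the minus strand. Capitals mark words of the E2F consensus, TTTCCCGC, TTTGGCGC, TTTCGCGC or TTTGCCGC, on either strand.
*MCM6* at chr2:135876444-135876643: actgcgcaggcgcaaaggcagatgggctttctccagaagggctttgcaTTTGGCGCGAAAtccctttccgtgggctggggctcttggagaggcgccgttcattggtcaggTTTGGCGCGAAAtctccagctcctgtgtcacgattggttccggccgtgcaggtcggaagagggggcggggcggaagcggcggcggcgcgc
*MCM7* at chr7:100101398-100101597: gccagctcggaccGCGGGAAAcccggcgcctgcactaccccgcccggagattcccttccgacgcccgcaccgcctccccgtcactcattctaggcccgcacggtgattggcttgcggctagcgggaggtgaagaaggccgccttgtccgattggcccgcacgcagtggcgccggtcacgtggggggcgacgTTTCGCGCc
*CDC25A* at chr3:48188418-48188617: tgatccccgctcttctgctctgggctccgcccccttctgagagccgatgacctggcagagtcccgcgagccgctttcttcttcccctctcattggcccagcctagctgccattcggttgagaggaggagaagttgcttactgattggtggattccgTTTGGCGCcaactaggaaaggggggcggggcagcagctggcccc
*CDK6* at chr7:92836574-92836773: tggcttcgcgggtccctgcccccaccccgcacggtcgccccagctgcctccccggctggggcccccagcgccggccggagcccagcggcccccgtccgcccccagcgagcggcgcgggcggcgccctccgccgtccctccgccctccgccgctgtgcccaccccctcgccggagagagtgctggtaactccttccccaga
*CDKN2B* at chr9:22009306-22009505: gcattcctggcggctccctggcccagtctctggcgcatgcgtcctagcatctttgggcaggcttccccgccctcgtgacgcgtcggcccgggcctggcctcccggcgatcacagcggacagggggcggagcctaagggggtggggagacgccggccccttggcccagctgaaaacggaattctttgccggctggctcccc

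The *MCM6* sequence held 4 E2F words as 2 overlapping pairs, which begin at -152, -148, -90 and -86 from the start. *MCM7* held 2 words, at -187 and -9, and *CDC25A* held 1 at -44. No such word was found in the *CDK6* and *CDKN2B* sequences. The log2 ratios of *MCM6*, *MCM7* and *CDC25A* were -0.70, 0.07 and 0.72. *MCM2*, with a log2 ratio of -0.01, held 0 words in its 200 bases (not shown) and 2 just after its start. A relation of words to ratios was not tested. In windows from 250 bases before to 50 after the start, available for 32 of the 41 genes, 13 (40.6%) held an E2F word. The share was 3.30% of all 34796 RefSeq windows and 5.65% of 8178 windows of genes of at least 1 FPKM. The list was drawn up from known genes of this pathway, so the higher share is a description. The median log2 ratio was 0.07 for the 13 genes with a word and 0.12 for the 19 without. TCF words (the letters CTTTGAA, or the letters CTTTGAT, or the letters CTTTGTA, or the letters CTTTGTT, either strand) were in 2 of the 32 windows (6.25%), against 13.8% of all windows and 7.86% of windows of genes of at least 1 FPKM. The words TTTGAA (contained in the first TCF word) and, as the other form, TTCGAA of the cell cycle homology region (CHR), either strand, were in 4 of the 32 (12.5%), a share below the 16.4% of all windows and above the 10.5% of windows of genes of at least 1 FPKM. CCAAT, either strand, was in 15 of the 32 (46.9%), against 34.6% of all windows and 37.1% of windows of genes of at least 1 FPKM. A match is only a match of letters and does not show binding. Windows were not analysed for *CCND1*, *CCND2*, *CCNE2*, *CDK2*, *CDKN1C*, *E2F5*, *E2F8*, *MCM4* and *MCM5*.

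The D cyclins pass growth signals to CDK4 and CDK6. In HCT-116 cells they were represented almost entirely by *CCND1*, which had 246 FPKM in untransfected cells and 315 FPKM after anti-*APC* siRNA. Its log2 ratio was 0.35 (counting standard error 0.012), a 1.28-fold difference and a higher ratio than that of 94.0% of all genes. *CCND3* had 24.5 and 25.5 FPKM, a log2 ratio of 0.06 with a counting interval of -0.06 to 0.17. The share of *CCND1* in the summed FPKM of the 3 D cyclins was 90.9% without and 92.5% with anti-*APC* siRNA. *CCND2* was listed at 0 in untransfected cells and at 0.0063 FPKM with anti-*APC* siRNA, the value of about 1 read, and both are under the 0.018 and 0.020 FPKM that a count of 0 allows (3 reads), so no ratio is given.

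The cyclin genes *CCNE1*, *CCNE2* and *CCNA2*, whose products activate CDK2 at S phase entry and during S phase, had higher values with anti-*APC* siRNA. *CCNE1* had 38.7 FPKM in untransfected cells and 42.3 FPKM under anti-*APC* siRNA, a log2 ratio of 0.13 (counting standard error 0.047). *CCNE2* had 24.1 and 30.9 FPKM, a log2 ratio of 0.36 (counting standard error 0.049). *CCNA2* had 92.1 and 112 FPKM, a log2 ratio of 0.28 (counting standard error 0.025). None of these reached 1.5-fold. *CCNE2* and *CCNA2* share their loci in the table with genes on the opposite strand, *INTS8* (50.2 and 47.0 FPKM) and *EXOSC9* (85.7 and 94.2 FPKM). The library kit named in the labels does not mark strand, so reads of overlapping parts cannot be told apart.

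**Figure D2:**
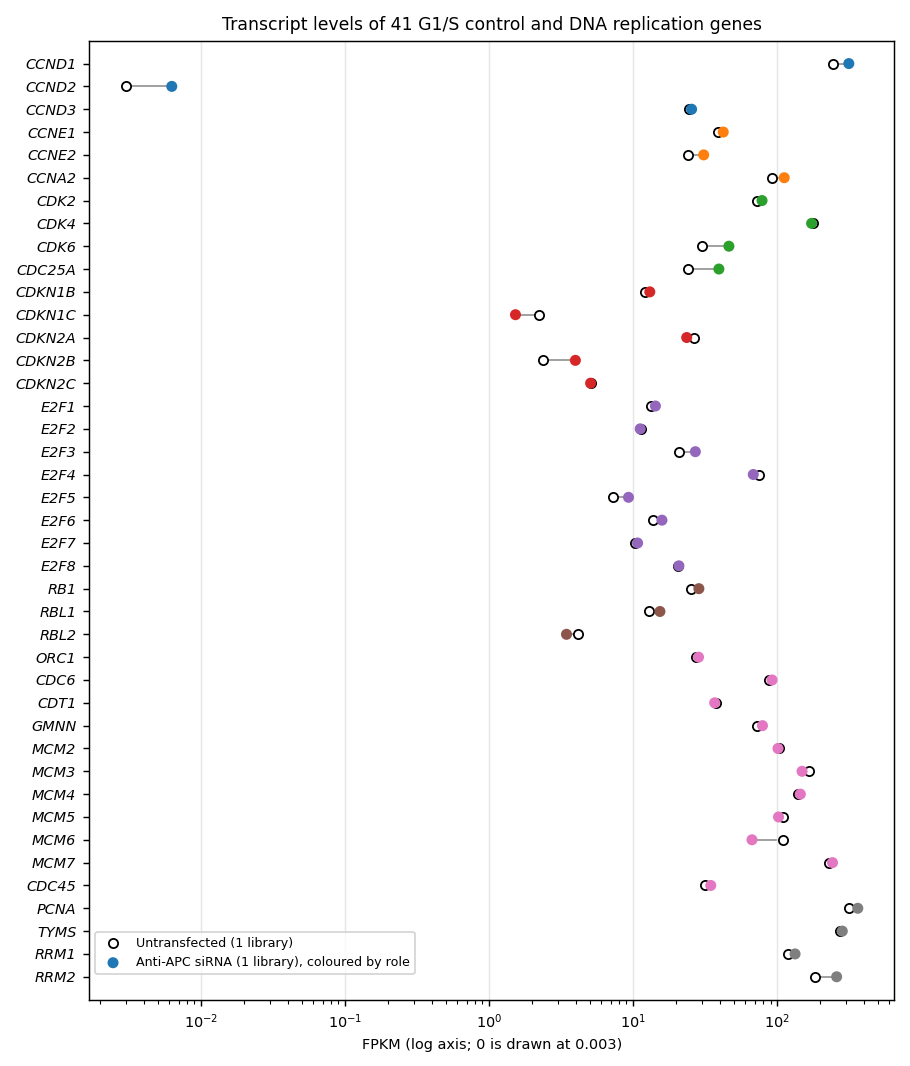
FPKM on a log axis for the 41 genes in the untransfected library (open circles) and the anti-*APC* siRNA library (filled circles, coloured by role), with 1 library each and values of 0 drawn at 0.003. Levels in untransfected cells run from 0 for *CCND2* and 2.21 FPKM for *CDKN1C* to 317 FPKM for *PCNA*, and most pairs of circles nearly overlap.

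The kinases that partner the D cyclins differed from each other. *CDK4* had 176 FPKM in untransfected cells and 174 FPKM after *APC* silencing, giving a log2 ratio of -0.02 with a counting interval of -0.07 to 0.02. *CDK6* had 30.2 and 46.3 FPKM, 1.53-fold more, for a log2 ratio of 0.61 (counting standard error 0.020). Its counting interval, 0.57 to 0.65, includes the 1.5-fold limit of 0.58. *CDK6* thus made up 14.6% of the summed FPKM of *CDK4* and *CDK6* without and 21.0% with anti-*APC* siRNA, and this share does not depend on how the libraries are scaled. *CDK6* is on chromosome 7 of GRCh37 from 92234235 to 92465887 on the minus strand. *CDK2*, the partner of cyclins E and A, had 72.6 and 78.6 FPKM, a log2 ratio of 0.11 (counting standard error 0.032).

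*CDC25A*, which encodes a phosphatase that removes inhibitory phosphates from CDK2, had 24.0 FPKM in untransfected cells and 39.4 FPKM after anti-*APC* siRNA. The value was 1.64-fold higher, for a log2 ratio of 0.72 (counting standard error 0.039). Its counting interval, 0.64 to 0.79, lies wholly above the 1.5-fold limit. Of the 7118 genes of at least 10 FPKM, 98.6% had a lower ratio. *CDC25A* is on chromosome 3 of GRCh37 from 48198636 to 48229907 on the minus strand and was alone at its locus. Its relatives *CDC25B* and *CDC25C*, which act mainly at entry into mitosis, were lower with anti-*APC* siRNA. *CDC25B* had 63.0 and 53.6 FPKM, a log2 ratio of -0.23 with a counting interval of -0.29 to -0.17. *CDC25C* had 9.94 and 8.95 FPKM, a log2 ratio of -0.15 with a counting interval of -0.33 to 0.03 that includes 0. Both ratios lie within the middle 50% of all genes, from -0.24 to 0.11. *WEE1*, the kinase that adds inhibitory phosphates to cyclin-dependent kinases, had 26.4 and 40.1 FPKM, a log2 ratio of 0.60 (counting standard error 0.039). The counting interval of *WEE1*, 0.53 to 0.68, includes the 1.5-fold limit, and on a scale of FPKM plus 1 its log2 ratio of 0.583 was just under the limit of 0.585.

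Among the listed inhibitors only *CDKN2B* was past 1.5-fold. It encodes an INK4 inhibitor of CDK4 and CDK6, and had 2.36 FPKM in untransfected cells and 3.98 FPKM after anti-*APC* siRNA. The 1.68-fold difference gave a log2 ratio of 0.75 (counting standard error 0.12), with a counting interval of 0.51 to 0.99 that includes the 1.5-fold limit. On a scale of FPKM plus 1 its log2 ratio was 0.56, under that limit. *CDKN2B* is on chromosome 9 of GRCh37 from 22002902 to 22009304 on the minus strand, at a locus shared with *CDKN2B-AS1* on the opposite strand, which had 0.233 and 0.321 FPKM. The adjacent *CDKN2A*, which encodes another INK4 inhibitor and the unrelated protein ARF, had 26.4 and 23.6 FPKM, a log2 ratio of -0.16 with a counting interval of -0.33 to 0.0021. *CDKN2C* had 5.13 and 5.07 FPKM, a log2 ratio of -0.02 with a counting interval of -0.38 to 0.34. *CDKN2B* thus contributed 6.97% of the summed FPKM of these 3 listed INK4 genes without and 12.2% with anti-*APC* siRNA. *CDKN2A* was the most abundant of the 3 in both libraries, but its value does not separate INK4 from ARF transcripts. A further INK4 gene, *CDKN2D*, was not among the 41 genes. It had 7.89 and 10.7 FPKM, a log2 ratio of 0.43 with a counting interval of 0.21 to 0.66.

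The remaining inhibitors block cyclin E and cyclin A complexes with CDK2. *CDKN1B* had 12.2 FPKM in untransfected cells and 13.1 FPKM after *APC* silencing, giving a log2 ratio of 0.10 with a counting interval of -0.05 to 0.25. *CDKN1C*, the least abundant gene of those above the limit of 1 FPKM, had 2.21 and 1.53 FPKM. Its log2 ratio of -0.53 rests on about 98 and 62 reads, with a counting interval of -0.99 to -0.07. *CDKN1A*, a p53 target of the same inhibitor family that was not among the 41 genes, had 67.9 and 65.1 FPKM, a log2 ratio of -0.06 (counting standard error 0.035). *CDKN1A* was the most abundant of these 3 inhibitors in both libraries.

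**Figure D3:**
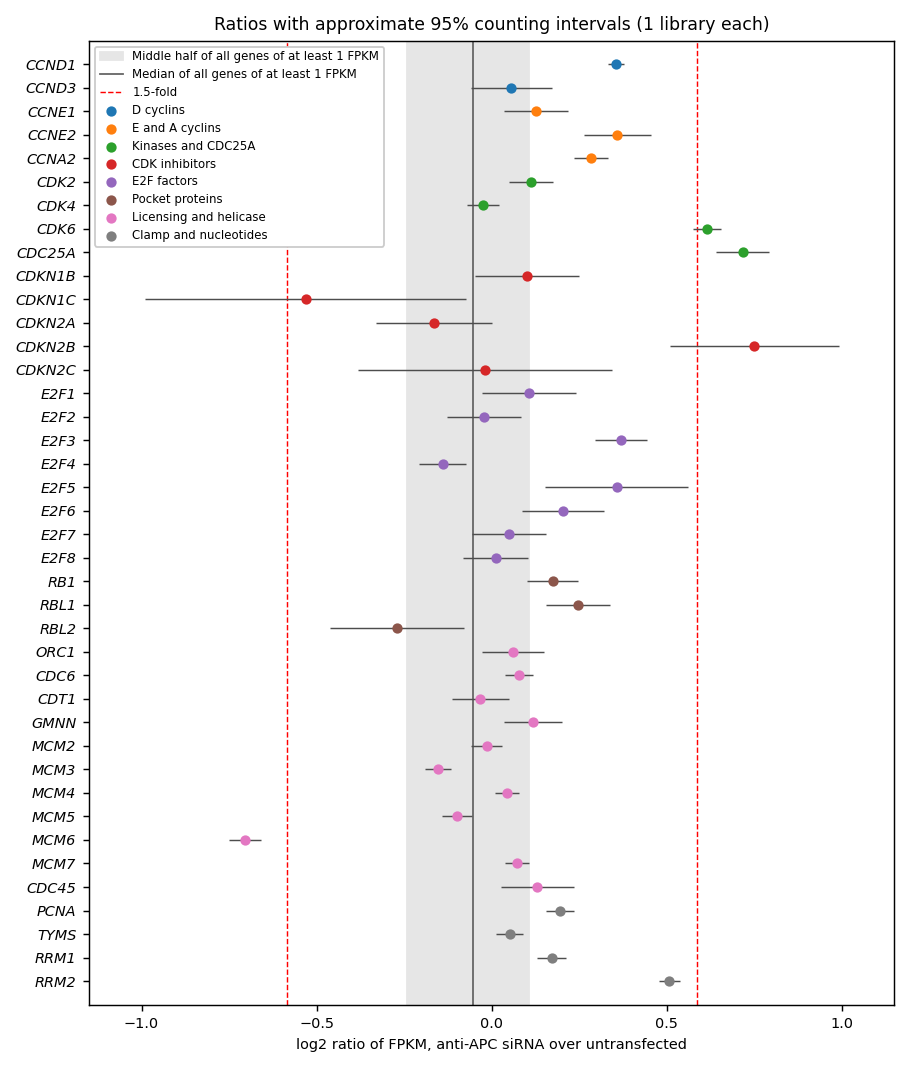
Log2 ratios of FPKM (anti-*APC* siRNA over untransfected) of the 40 genes of at least 1 FPKM, ordered and coloured by role, with bars for approximate 95% counting intervals. The grey band holds the middle 50% of all genes, from -0.24 to 0.11, the dashed lines mark 1.5-fold, and *MCM6* at -0.70 lies far from the other MCM genes.

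Log2 ratios of the 8 *E2F* genes ran from -0.14 to 0.37, with a median of 0.08. Those of *E2F3* and *E2F5* were higher than those of 94.5% and 94.1% of all genes. Among the activators *E2F3* was the most abundant and had the largest difference, with 20.9 FPKM in untransfected cells and 27.1 FPKM after anti-*APC* siRNA. Its log2 ratio was 0.37 (counting standard error 0.038), a 1.29-fold difference. *E2F1* had 13.3 and 14.3 FPKM, and *E2F2* had 11.4 and 11.2 FPKM, and the counting intervals of both log2 ratios included 0. *E2F3* thus went from 46.0% to 51.5% of the summed FPKM of the 3 activators.

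The repressor *E2F4*, which acts with pocket proteins in resting cells, was the most abundant *E2F* gene, with 75.3 FPKM in untransfected cells and 68.3 FPKM under anti-*APC* siRNA. Its log2 ratio was -0.14 (counting standard error 0.034). *E2F5*, which also binds pocket proteins, had 7.26 and 9.29 FPKM, a log2 ratio of 0.36 (counting standard error 0.10). It shares its locus in the table with *C8orf59*, which had 75.1 and 44.2 FPKM, a log2 ratio of -0.76, and the part of this neighbour in the value of *E2F5* was not tested. *E2F6*, a repressor that works without pocket proteins, had 13.8 and 15.9 FPKM, a log2 ratio of 0.20 (counting standard error 0.060). The atypical repressors *E2F7*, with 10.4 and 10.7 FPKM, and *E2F8*, with 20.6 and 20.8 FPKM, had log2 ratios of 0.05 and 0.01 and counting intervals that included 0.

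Pocket protein genes showed no common direction. *RB1* had 25.4 FPKM in untransfected cells and 28.6 FPKM after *APC* silencing, giving a log2 ratio of 0.17 (counting standard error 0.037). *RBL1*, itself an E2F target, had 12.9 and 15.4 FPKM, a log2 ratio of 0.25 (counting standard error 0.047). *RBL2*, which is prominent in resting cells, was lower, with 4.16 and 3.45 FPKM and a log2 ratio of -0.27 (counting standard error 0.098). *RBL2* shares its locus with *AKTIP* on the opposite strand, which had 18.8 and 15.1 FPKM, a log2 ratio of -0.32. The part of *AKTIP* in the value of *RBL2* was not tested. *RB1* remained the most abundant pocket protein gene, with 59.7% of the summed FPKM without and 60.3% with anti-*APC* siRNA.

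Licensing marks each origin for use in the next S phase. The origin recognition complex, with *ORC1* as its largest subunit, recruits CDC6 and CDT1, which load the MCM helicase, and geminin (*GMNN*) holds CDT1 in check. These genes differed little between the libraries. *ORC1* had 27.3 FPKM in untransfected cells and 28.5 FPKM under anti-*APC* siRNA, and *CDC6* had 87.3 and 92.2 FPKM, log2 ratios of 0.06 and 0.08. *CDT1* had 37.7 and 36.8 FPKM, and *GMNN* had 72.9 and 79.1 FPKM, log2 ratios of -0.03 and 0.12. The ratio of *CDT1* to *GMNN* was 0.517 in untransfected cells and 0.466 after anti-*APC* siRNA. *CDC45*, which joins the helicase when origins fire, had 31.6 and 34.6 FPKM, a log2 ratio of 0.13 (counting standard error 0.053).

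The MCM2 to MCM7 proteins form a ring with 1 copy of each. Of their 6 genes 4 were lower and 2 higher with anti-*APC* siRNA, and 5 differed less than *MCM6*. *MCM2* had 102 FPKM in untransfected cells and 101 FPKM after anti-*APC* siRNA, *MCM4* had 141 and 145 FPKM, and *MCM7* had 230 and 242 FPKM. *MCM3* had 166 and 149 FPKM, and *MCM5* had 109 and 102 FPKM. The log2 ratios of these 5 genes ranged from -0.15 for *MCM3* to 0.07 for *MCM7*, with a median of -0.01. Counting intervals lay below 0 for *MCM3* (-0.19 to -0.12) and *MCM5* (-0.14 to -0.06). They lay above 0 for *MCM4* (0.01 to 0.08) and *MCM7* (0.04 to 0.11), and that of *MCM2* included 0.

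*MCM6* differed from this pattern. It had 109 FPKM in untransfected cells, close to *MCM2* and *MCM5*, and 66.9 FPKM after anti-*APC* siRNA, the lowest of the 6 genes. Of its level 61.4% remained, a log2 ratio of -0.70 (counting standard error 0.024) with a counting interval of -0.75 to -0.66. Only 2.02% of the 7118 genes of at least 10 FPKM had a lower ratio. *MCM6* was at 0.728 of the mean of the other 5 genes without and at 0.452 with anti-*APC* siRNA, a change of -0.69 on the log2 scale relative to their sum that is free of library scaling. *MCM6* is on chromosome 2 of GRCh37 from 136597196 to 136634013 on the minus strand, where no other gene shares its locus in the table. *MCM7* shares its locus with 6 other genes, among them 3 microRNA genes that lie within it. *MIR25* was listed at 155 and 119 FPKM and *MIR93* and *MIR106B* at 0, and FPKM of genes this short are unreliable as levels.

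**Figure D4:**
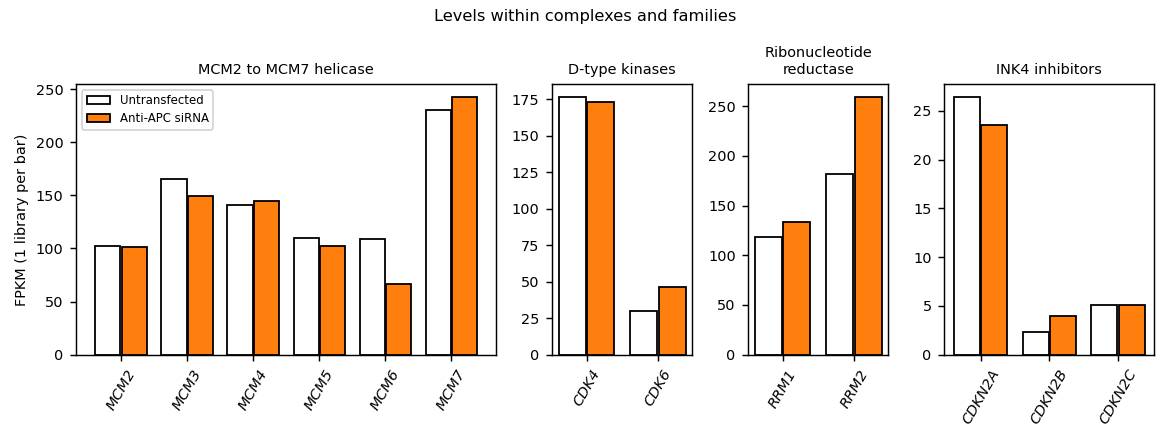
FPKM in the untransfected (white) and anti-*APC* siRNA (orange) library for the helicase genes, D-type kinases, ribonucleotide reductase subunits and listed INK4 inhibitors. Each bar is 1 library, and axes start at 0. *MCM6* drops from 109 to 66.9 FPKM beside 5 helicase genes whose bars differ less. *CDK6*, *RRM2* and *CDKN2B* have higher orange bars beside partners that differ less.

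The genes of the replication fork and of nucleotide supply were abundant. All 4 were higher with anti-*APC* siRNA, against 46.5% of all genes of at least 10 FPKM. *PCNA*, the sliding clamp, had 317 FPKM in untransfected cells and 363 FPKM after *APC* silencing, giving a log2 ratio of 0.20 (counting standard error 0.020). *PCNA-AS1*, at the same locus, was listed at 11.6 FPKM in untransfected cells and at 0 after anti-*APC* siRNA, and its part in the value of *PCNA* was not tested. *TYMS*, which makes thymidylate, had 273 and 283 FPKM, a log2 ratio of 0.05 (counting standard error 0.020). Of the genes of at least 10 FPKM, 63.3% had a lower ratio than *TYMS*. *TYMS* overlaps *ENOSF1* on the opposite strand, which had 10.9 and 7.92 FPKM.

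Ribonucleotide reductase, which makes deoxyribonucleotides, has a large subunit (*RRM1*) and a small subunit (*RRM2*) whose level limits its activity in S phase. *RRM2* had 182 FPKM in untransfected cells and 259 FPKM under anti-*APC* siRNA, a 1.42-fold difference just under the 1.5-fold limit. Its log2 ratio was 0.51 (counting standard error 0.016), higher than that of 96.9% of all genes. *RRM1* had 118 and 133 FPKM, a log2 ratio of 0.17 (counting standard error 0.021). The ratio of *RRM2* to *RRM1* was 1.54 without and 1.94 with anti-*APC* siRNA. *RRM2B*, a related small subunit that p53 induces, had 24.8 FPKM in both libraries.

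Other genes of DNA replication and G1/S control were compared next. Of 90 further genes (other origin, helicase, polymerase, clamp loader and nucleotide genes, and further regulators of E2F and kinase activity), 88 were in the table and 86 passed the limit of 1 FPKM. Of these 86, 52 (60.5%) were higher and 34 lower with anti-*APC* siRNA, against 41.4% of all genes of at least 1 FPKM higher. The median log2 ratio of the 86 was 0.02. A mean of at least 10 FPKM was reached by 77 of the 86. Among all 7118 genes at this level 46.5% were higher, and their median log2 ratio was -0.02. Among the 86, 1 gene was at least 1.5-fold higher, *WEE1*, and 1 lower, *POLD4*, beside 2.56% and 6.61% of all genes. *POLD4* encodes a small subunit of DNA polymerase δ and had 16.5 and 9.87 FPKM, a log2 ratio of -0.74 (counting standard error 0.092). It shares its locus in the table with other genes. The other polymerase δ subunits *POLD1*, *POLD2* and *POLD3* had log2 ratios of -0.22, -0.15 and -0.03. *CHEK1*, the checkpoint kinase of replication stress, is listed at 0 in both libraries with a failed estimate, so its value is not evidence of absence, and *CCNA1* is also listed at 0.

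Genes of the following phases, G2 and mitosis, were compared as the nearest other program. Of 25 such genes 24 passed the limit, and *BUB1B* is listed at 0 with a failed estimate. None of the 24 differed by 1.5-fold. Of all genes of at least 10 FPKM, 1.9% were at least 1.5-fold higher and 3.19% lower. Higher values were seen in 19 of the 24 (79.2%) and lower values in 5, against 46.5% of those genes higher. The median log2 ratio was 0.07, close to the 0.09 of the G1/S and replication genes. *TOP2A*, which untangles DNA, had 88.6 and 111 FPKM, a log2 ratio of 0.32. *BIRC5*, which encodes survivin, had 72.9 and 57.3 FPKM, a log2 ratio of -0.35. *MKI67*, a general marker of proliferation, had 132 and 142 FPKM, a log2 ratio of 0.11. Log2 ratios of the G1/S and replication genes had a standard deviation across genes of 0.28. This was more than for the G2/M genes (0.17) and the other replication genes (0.20). It was less than for all genes of at least 1 FPKM (0.38) or 10 FPKM (0.30). A mean of at least 10 FPKM was reached by 35 of the 40 genes and by all 24 G2/M genes. Differences in spread were not tested.

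**Figure D5:**
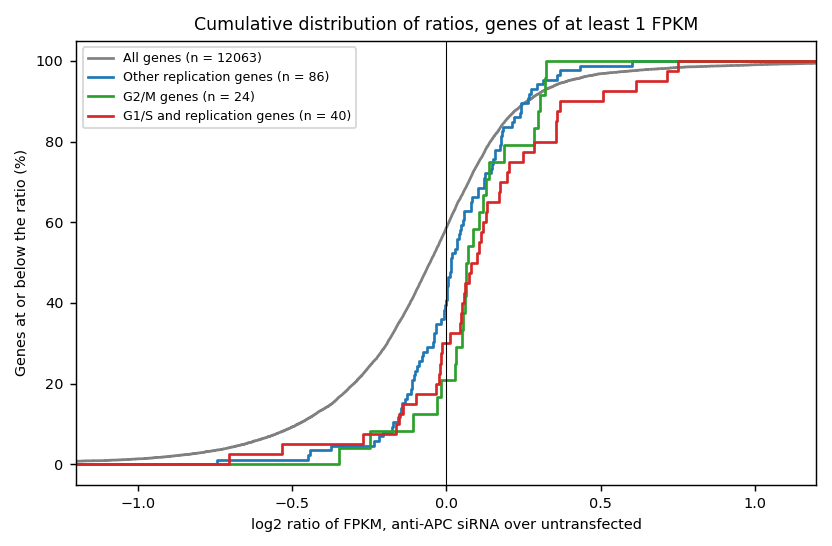
Cumulative distributions of the log2 ratio of FPKM (anti-*APC* siRNA over untransfected) for 40 G1/S and replication genes, 86 other replication genes, 24 G2/M genes and 12063 genes of at least 1 FPKM. The medians are 0.09, 0.02, 0.07 and -0.05, and the 3 gene lists lie to the right of all genes over most of the range.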

How the data were processed

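RNA from HCT-116 cells was sequenced by the authors as single-read TruSeq libraries. Per the labels reads were processed with Cufflinks and Cuffdiff on hg19. Versions, the aligner and the annotation are not given in the sources used here. The authors deposited FPKM of the anti-*APC* and untransfected libraries, 1 library each, for 23131 gene symbols. Their fold change, test statistic, p-value and q-value columns in the same table were not used. Cuffdiff marked 269 rows as failed.

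Log2 ratios were taken on FPKM with no pseudocount, for genes with a mean of at least 1 FPKM that were above 0 in both libraries. Differences of at least 1.5-fold were counted. Of 846 rows with a mean under 0.05 FPKM, 51.3% lay within 0.01 (log2) of the 5 ratios expected of 1 to 3 whole reads, after a shift of 0.13 on the log2 scale between the libraries. With GENCODE 44 transcript lengths, 160 rows with 1 and 2 reads gave a median of 25100000 untransfected reads (quartiles 15200000 and 26500000). Read numbers, counting errors (95% intervals use 1.96 standard errors) and the limit for a count of 0 (3 reads) derive from these depths and are approximate. Gene coordinates are from GENCODE 44 on GRCh37, 1-based.

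Every gene of the list is named, with further pathway genes past 1.5-fold. Others were chosen after their values were seen: *CDC25B*, *CDC25C*, *CDKN1A*, *CDKN2D*, *RRM2B*, *POLD1* to *POLD3*, *TOP2A*, *BIRC5*, *MKI67* and genes at shared or neighbouring loci. The genes and lists were chosen with earlier results of these data known. Alternatives were other fold limits, FPKM minimums, pseudocounts, centring on the median, a lowess trend (fraction 0.3) and genes alone at their locus. Scripts were tested on simulated data. Python 3.11.15, numpy 2.4.6, pandas 2.3.3, statsmodels 0.14.6 and matplotlib 3.10.9 were used.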

Additional observations from a re-analysis of the deposited data

How the results depend on the processing

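No replicate could be left out and no paired analysis was possible because each condition has 1 library, and a comparison with scrambled siRNA could not be run because that library was not analysed here. The 4 genes past 1.5-fold became 10 (8 higher, 2 lower) at a lower limit of 0.32 on the log2 scale, where 7.17% of all genes were higher and 18.4% lower, and 0 at 2-fold, where 0.953% were higher and 1.37% lower. They became 3 with a minimum of 5 FPKM (2.02% of all genes higher, 3.77% lower) or a pseudocount of 1 FPKM (2.32% and 4.31%). Among the 29 genes alone at their locus 3 were past 1.5-fold (1.99% and 6.03%), and *CDKN2B* dropped out in each case. Of the 86 other replication genes, 2 were past 1.5-fold, against 8 at that lower limit and 0 at 2-fold. With a pseudocount of 1 FPKM 1 was past 1.5-fold (without *WEE1*), and 1 among the 68 genes alone at their locus. The shares of all genes at these settings are those given above. The median log2 ratio of the 40 genes ranged from 0.08 to 0.14 over the FPKM minimums, pseudocounts, scalings and the restriction to single-gene loci. Subtracting the median of all genes turned 5 small negative ratios (*CDK4*, *CDKN2C*, *CDT1*, *E2F2* and *MCM2*) positive, so that 33 of 40 genes were higher against 50.0% of all genes. Subtracting a lowess trend on expression turned 2 of these positive, and 30 of 40 were higher against 51.0% of all genes. *CDC25A*, *CDK6*, *CDKN2B* and *MCM6* kept their direction under both pseudocounts and both scalings. Counting error limits *CDKN1C*, *CDKN2C* and *CDKN2B* most.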

Other observations

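Genes near the 4 genes past 1.5-fold were examined after those values were seen, within 500 kb on either side in the table's own coordinates. Around *MCM6* lie 4 other genes of at least 1 FPKM, none of them past 1.5-fold, with log2 ratios from -0.23 to 0.05. The counts of neighbours here and below are read beside 2.56% of all genes at least 1.5-fold higher and 6.61% lower. *DARS*, an aminoacyl-tRNA synthetase gene, had 93.3 FPKM in untransfected cells and 82.4 FPKM after anti-*APC* siRNA. *R3HDM1* had 32.3 and 33.3 FPKM, and *UBXN4* had 40.7 and 41.9 FPKM. *ZRANB3*, a DNA repair translocase gene, had 5.35 and 4.58 FPKM.

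Around *CDK6* lie 11 such genes with log2 ratios from -0.31 to 0.47, and none was past 1.5-fold. Around *CDC25A* lie 15, of which 1 was past 1.5-fold. This was *PFKFB4*, a regulator of glycolysis, which was lower, with 6.99 and 4.25 FPKM. *CDKN2B* has *CDKN2A* and *MTAP* as measured neighbours, and *MTAP*, an enzyme of methionine salvage, had 122 and 120 FPKM, a log2 ratio of -0.03.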
